A study of Mus musculus with 3 samples.

Results

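The genes described here are the hypoxia-inducible factor subunits Hif1a and Arnt, the oxygen-sensing prolyl hydroxylases Egln1 and Egln3, the ubiquitin ligase subunit Vhl, and P4ha1, Bnip3, Bnip3l and Vegfa, which are known targets of the factor. These 9 genes were chosen by symbol as a pathway. For 8 of them the annotation gives a probe set of their own, as it does for 18193 genes in all, and Bnip3l has shared probe sets. Every probe set annotated to them was taken, 23 in all, of which 19 passed the signal filter explained below. Going by the titles and treatment text, B16 cells, a mouse melanoma line, were measured at 0, 2 and 4 h of doxorubicin at 1 µg/ml, with 1 Affymetrix Mouse430_2 array (a chip of short oligonucleotide probes) at each time. Doxorubicin, an anthracycline, inserts between DNA bases and traps topoisomerase II on the DNA. The samples hold no untreated culture at 2 or 4 h, so the drug and the elapsed time cannot be told apart. The sources used here do not give the oxygen level. With 1 array per time point there is no spread between cultures, and no test was made. In whole cultures, fewer cells of a kind and less RNA per cell cannot be told apart.

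Hypoxia-inducible factor (HIF) is a dimer of an oxygen-regulated alpha subunit and the constant beta subunit Arnt. In oxygen, the Egln enzymes hydroxylate prolines of the alpha subunit, Vhl binds the hydroxylated protein and the ligase around Vhl marks it for the proteasome, so the factor is set mainly at the protein level. When oxygen is short the alpha subunit is stable, and the dimer binds a short hypoxia response element near genes of glycolysis, blood vessel growth, collagen modification and mitochondrial turnover. The arrays measured transcripts of these genes, not the proteins or the hydroxylation.

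Signals below are the deposited intensities after rescaling each array to a 2% trimmed mean of 500. Before log2 was taken, values under a floor of 100 were raised to it. A probe set passed the filter where the mean of its log2 signals was at or above log2 of 200, and the brightest passing probe set stood for its gene. A gene could thus pass through only those arrays in which it was high. The median signal over all 45101 probe sets ran 154, 136 and 126 over the course. Different passing probe sets of a gene differed in log2 ratio with an SD of 0.40 at 2 h and 0.48 at 4 h against 0 h, which is a probe-level spread and leaves out cultures and arrays. Pigment cell markers, led by Tyrp1, Pmel and Dct, were bright: of 14, 13 reached a signal of 200 in the 0 h array, 11 in the 2 h array and 12 in the 4 h array. Their summed signal, carried by the brightest genes, was 216058, 232913 and 232268, while their median was 10055, 4429 and 2617. Among them the transcription factors Mitf (6576, 2031 and 739) and Sox10 (11710, 2640 and 892) were lower at each later time. Tyr (221, 170 and 142), Oca2 (208, 149 and 207), Ednrb (206, 253 and 282) and Kit (149, 24.5 and 84.5) were dim. The labels conflict in part: the descriptions name BMDM, an abbreviation used for macrophages grown from bone marrow, and at 2 and 4 h an ET treatment that they do not explain, where titles and treatment text name doxorubicin. Macrophage markers reached 200 in 7, 5 and 5 of 16 genes, with a median of 171, 158 and 154. Their sum of 4757, 5495 and 6256 followed Cd68 (1884, 3044 and 3699), whereas Csf1r had 522, 424 and 376 and Spi1 330, 172 and 198. Lyz2 had 372, 414 and 398, Fcer1g 320, 229 and 359 and Adgre1 302, 197 and 301. Itgam, Marco, Ptprc and C1qa lay under 100 on each array. Fibroblast markers summed to 3825, 3912 and 4063, endothelial markers to 883, 969 and 766, and lymphocyte markers to 873, 1134 and 893. Their part in the values below was not tested.

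At 2 h, none of the 8 members with their own passing probe set differed 2-fold from 0 h in either direction. Among all 9723 genes that passed, 5.69% were lower by that size and 1.41% higher. Vhl was the 1 member at least 2-fold lower at 4 h, against 14.4% of all genes, and no member was at least 2-fold higher, against 2.32% of all genes. Between 2 h and 4 h, Vhl again was the 1 member at least 2-fold lower, where 5.41% of all genes were lower and 0.843% higher by that size. A share of 1 in 8 lower members at 4 h is 12.5%, near that of all genes. The member genes thus lay mostly inside a 2-fold band, with 4 above and 4 below 0 at each time. Their median log2 ratio was 0.06 at 2 h and -0.03 at 4 h, beside -0.01 and -0.07 for all genes.

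**Figure D1:**
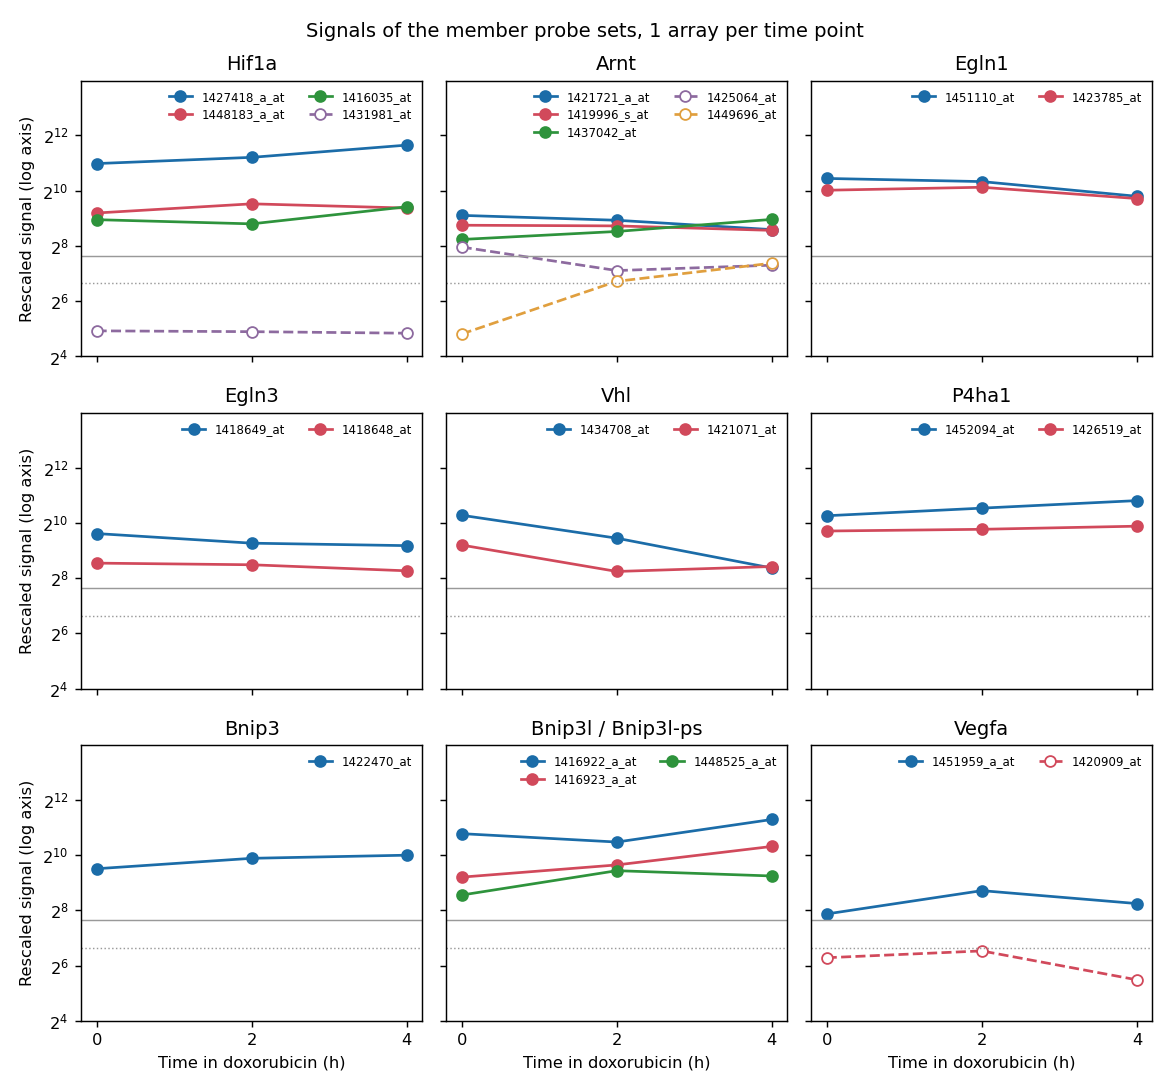
Rescaled signal on a log axis against time in doxorubicin for each of the 23 probe sets, 1 panel per gene, with filled points and solid lines for probe sets that passed the filter and open points and dashed lines for the others. The solid grey line is the filter value of 200 and the dotted line the floor of 100, and both lines of Vhl end below their start while the brightest lines of Hif1a and P4ha1 end above theirs.

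Hif1a, the oxygen-regulated alpha subunit, was the brightest member at each time. Its brightest probe set (1427418_a_at) had signals of 2019, 2360 and 3208 at the 3 times. The signal was highest at 4 h, 1.59-fold above 0 h, with log2 ratios of 0.22 at 2 h and 0.67 at 4 h. At 4 h, 91.8% of all genes had a lower ratio than Hif1a. A second probe set (1448183_a_at) had signals of 585, 736 and 662, highest at 2 h. Another passing probe set (1416035_at) had 494, 445 and 683. These probe sets differed in what happened at 2 h but were all higher at 4 h than at 0 h, with log2 ratios there of 0.67, 0.18 and 0.47, of which the 0.18 is smaller than the shift of -0.32 that spike-in scaling brings. The SD over the 3 passing probe sets was 0.25 at both times, so the 2 h difference of Hif1a was smaller than the spread between its own probe sets, and it turned to -0.15 where probe sets with suffixed names were left out. A further probe set (1431981_at) had 30.4, 29.8 and 28.7, under the floor, and gave no ratio.

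Arnt, the constant partner subunit, had 5 probe sets that did not move one way. The brightest (1421721_a_at) had signals of 551, 487 and 385, lower at each later time, with log2 ratios of -0.18 and -0.52. The next (1419996_s_at) was close to level at 430, 423 and 378. Another (1437042_at) had 301, 368 and 498, higher at each later time, with a log2 ratio of 0.73 at 4 h. The SD over these 3 was 0.24 at 2 h and 0.64 at 4 h. Arnt therefore had no settled direction at 4 h: its log2 ratio was 0.01 as a mean over probe sets and 0.73 where probe sets with suffixed names were left out. Of the probe sets that did not pass, 1425064_at had signals of 249, 138 and 158, and 1449696_at had 28.1, 105 and 166.

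The other subunits were taken from a list of the family. Epas1, which encodes the alpha subunit HIF-2 alpha, had signals of 523, 884 and 916 and log2 ratios of 0.76 ± 0.69 at 2 h and 0.81 ± 0.24 at 4 h (SD over 2 probe sets). The 4 h ratio passed 2-fold with equal medians (1.11) and with quantile normalization. Hif3a, an alpha subunit with inhibitory forms, had 435, 340 and 462 and a ratio of 0.09 ± 0.42 at 4 h (SD over 2 probe sets), below 0 when arrays were scaled to hybridization spike-ins. Arnt2 did not pass the filter.

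Egln1 encodes PHD2, the main oxygen sensor that hydroxylates the alpha subunit, and both of its probe sets were lowest at 4 h. The brighter (1451110_at) had signals of 1390, 1285 and 889, and the other (1423785_at) had 1035, 1115 and 839. At 4 h Egln1 was thus 1.56-fold and 1.23-fold lower by these probe sets, with log2 ratios of -0.65 and -0.30. At 2 h they stood on either side of 0, at -0.11 and 0.11, and the ratio of the brighter one was 0.04 with arrays scaled to equal medians. Egln3 encodes PHD3, a relative that is itself a hypoxia-induced gene. Its probe sets had signals of 782, 614 and 578 (1418649_at) and of 373, 357 and 307 (1418648_at). Both were lowest at 4 h, with log2 ratios of -0.44 and -0.28, each within 2-fold of 0 h.

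The list of oxygen-sensing hydroxylases held 2 further passing genes. Egln2, or PHD1, had signals of 1865, 1760 and 1184, which gave a log2 ratio of -0.66 at 4 h. Hif1an, the asparaginyl hydroxylase that blocks coactivator binding by the alpha subunit, had 657, 394 and 271 and was 2.43-fold lower at 4 h. Its log2 ratio of -1.28 was the lowest of the hydroxylases, and it reached no more than -0.97 with equal medians or quantile normalization. All 4 passing hydroxylases, members included, were below 0 at 4 h in each scaling that measured them.

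Vhl, the subunit that recognises the hydroxylated alpha subunit, was the lowest member at both times. Its brighter probe set (1434708_at) had signals of 1237, 696 and 329, and the other (1421071_at) had 586, 302 and 342. Both probe sets were close to 2-fold lower at 2 h, at log2 ratios of -0.83 and -0.96. They parted afterwards, with a log2 ratio of 4 h over 2 h of -1.08 by the brighter one, whereas the other was 1.13-fold above its 2 h signal. The 4 h ratio was -1.91 by the first (3.76-fold lower) and -0.78 by the second (1.71-fold lower), with an SD of 0.80. At 4 h, 3.57% of all genes had a ratio below that of the brighter probe set. As a mean over both probe sets the 4 h ratio was -1.34, still at least 2-fold lower.

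The partners of Vhl in its ligase did not show this pattern. Elob and Eloc, the elongin subunits that bind Vhl, had signals of 10076, 12592 and 14766 and of 7601, 10665 and 13527. Their log2 ratios at 4 h were 0.55 ± 0.23 (SD over 2 probe sets) and 0.83 ± 0.30 (SD over 4 probe sets). The scaffold Cul2 was at 0.30 at 4 h, and at -0.02 with spike-in scaling. Vhl thus lay below its 3 measured partners, and none of these differed 2-fold from 0 h in the main setting, though Eloc reached 1.14 with equal medians. Rbx1, the ring subunit, did not pass the filter.

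**Figure D2:**
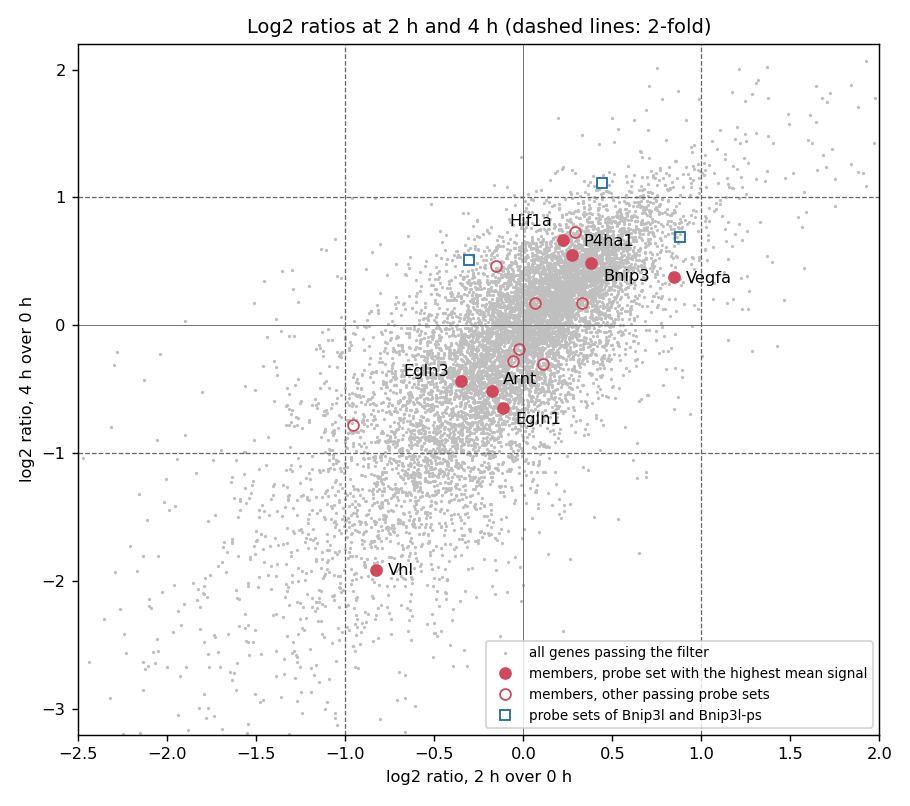
Log2 ratio at 4 h against log2 ratio at 2 h, each over 0 h, for all genes passing the filter (grey), the probe sets that stand for members (filled red), their other passing probe sets (open red) and the probe sets shared by Bnip3l and Bnip3l-ps (blue squares); 63 genes lie outside the axes. Vhl is the lowest member at -0.83 and -1.91, Vegfa stands furthest right of the members at 0.84, and the other filled points lie within 2-fold of 0 h at both times.

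Among the targets, P4ha1 and Bnip3 had their highest signal at 4 h. P4ha1 encodes the catalytic subunit of collagen prolyl 4-hydroxylase, an enzyme of the secretory pathway. Its probe sets had signals of 1222, 1479 and 1787 (1452094_at) and of 833, 870 and 941 (1426519_at), so both were highest at 4 h. The log2 ratios at 4 h were 0.55 and 0.18, and 87.0% of all genes had a lower ratio than the brighter probe set. Bnip3, a receptor that marks mitochondria for autophagy, had 1 probe set (1422470_at), with signals of 725, 942 and 1018. It was 1.30-fold higher at 2 h and 1.4-fold higher at 4 h, with most of the difference in place by 2 h. Both genes stayed above 0 in each scaling, down to 0.23 for P4ha1 and 0.17 for Bnip3 at 4 h with spike-in scaling.

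Bnip3l, also called Nix, is a relative of Bnip3 in mitochondrial turnover. Its 3 probe sets are annotated to Bnip3l and to its pseudogene Bnip3l-ps alike, so the transcripts could not be told apart. The gene entered no count of 2-fold differences above, though these probe sets are among the 23 taken and the 19 that passed. The brightest (1416922_a_at) had signals of 1748, 1416 and 2494. The second (1416923_a_at) had 587, 798 and 1269, and the third (1448525_a_at) had 375, 690 and 604. All 3 were higher at 4 h than at 0 h, at log2 ratios of 0.51, 1.11 and 0.69, so that 1 of them passed 2-fold. At 2 h they disagreed in sign, at -0.30, 0.44 and 0.88. With the brightest shared probe set standing for Bnip3l, the median log2 ratio of 9 members relative to all genes would move from 0.03 to 0.44 at 4 h and from 0.07 to -0.10 at 2 h, because the members fall on either side of 0.

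Vegfa, the main growth factor of blood vessel endothelium, was the dimmest member and the 1 with its highest signal at 2 h. The measured probe set (1451959_a_at) had signals of 233, 419 and 303. It was 1.79-fold higher at 2 h and 1.30-fold higher at 4 h. The 2 h log2 ratio of 0.84 was above that of 97.7% of all genes, and it was 1.02 with quantile normalization, just past 2-fold. At 4 h the ratio was 0.38, and 0.05 with spike-in scaling. The other probe set (1420909_at) lay under the floor on each array, at 77.8, 92.3 and 44.7, so Vegfa rested on 1 dim probe set.

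**Figure D3:**
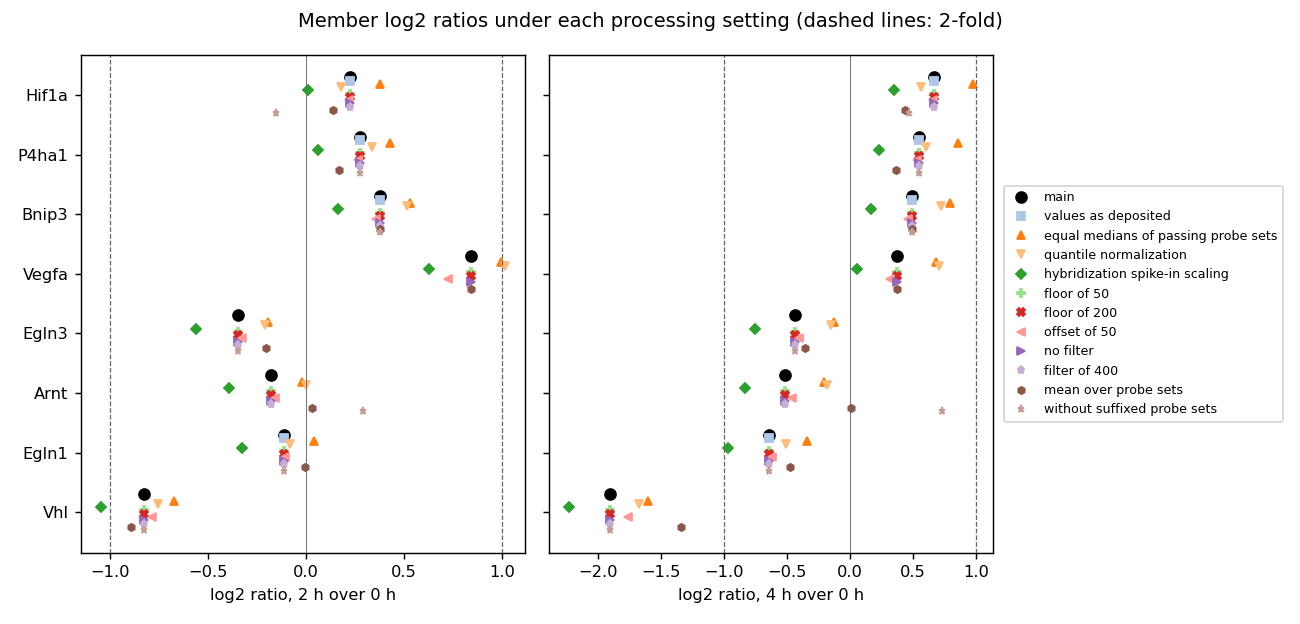
Log2 ratio at 2 h (left) and at 4 h (right) over 0 h of each of 8 members, with 1 marker for each processing setting and black circles for the main one. Vhl lies beyond 2-fold at 4 h in each setting that measured it, from -2.23 to -1.34, and Arnt spreads from -0.84 to 0.73. Each Vhl value rests on its brighter probe set, alone or in a mean, and the other probe set had -0.78 in the main setting.

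Ordered by log2 ratio at 4 h, the members ran from Hif1a (0.67) through P4ha1 (0.55), Bnip3 (0.49) and Vegfa (0.38) to Egln3 (-0.44), Arnt (-0.52), Egln1 (-0.65) and Vhl (-1.91). Neighbours within the first 4 and among Egln3, Arnt and Egln1 differed by less than the probe-level SD of 0.48. The steps from Vegfa to Egln3 and from Egln1 to Vhl were larger than that SD, going by the brightest probe sets. As means over probe sets, Arnt at 0.01 stood between Vegfa (0.38) and Egln3 (-0.36), and Vhl stayed lowest at -1.34. The second Vhl probe set, at -0.78, was near Egln1 at -0.65. At 2 h the order was led by Vegfa (0.84) and Bnip3 (0.38) and closed by Egln3 (-0.35) and Vhl (-0.83). By likeness of the 2 ratios, over 3 arrays and 9212 other genes above the floor, Lsm6, Mrpl21 and Gabarapl2 lay nearest to Hif1a, at Euclidean distances of 0.0057, 0.0063 and 0.014. Mks1, Plppr2 and Gpr137 lay nearest to Vegfa, at distances of 0.022, 0.026 and 0.030. With so many genes and 2 ratios, such closeness carries little weight.

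The stretches of promoter printed next show where the core letters of the hypoxia response element, ACGTG or GCGTG, stand upstream of the start site in 6 of the 7 members whose windows held them. That of Vegfa is left out because its matches precede a second start further along the gene, and its window at the first start held none. The search covered both strands of RefSeq windows (GRCm38.p6) from 250 bases before to 50 after each annotated start, where CACGT and CACGC are the same motifs on the other strand, and a CACGTG holds ACGTG on each strand and counts as 2 matches. Capitals mark matches, sequences run 5′ to 3′ on the strand of the gene and end before the start site.
Bnip3, chr7:138909517-138909643, minus strand: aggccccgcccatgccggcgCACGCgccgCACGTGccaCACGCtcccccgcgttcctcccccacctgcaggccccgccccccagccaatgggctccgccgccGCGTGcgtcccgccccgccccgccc
P4ha1, chr10:59323113-59323295, plus strand: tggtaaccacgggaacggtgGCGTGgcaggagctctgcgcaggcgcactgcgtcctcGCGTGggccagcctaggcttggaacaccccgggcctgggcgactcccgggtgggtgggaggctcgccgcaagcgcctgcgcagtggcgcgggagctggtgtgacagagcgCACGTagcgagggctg
Hif1a, chr12:73907712-73907821, plus strand: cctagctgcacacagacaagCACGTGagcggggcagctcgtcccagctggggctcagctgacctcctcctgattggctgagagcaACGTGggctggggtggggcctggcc
Egln1, chr8:124949298-124949400, minus strand: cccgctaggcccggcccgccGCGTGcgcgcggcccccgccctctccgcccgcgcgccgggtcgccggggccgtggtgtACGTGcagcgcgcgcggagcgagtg
Egln3, chr12:54204079-54204123, minus strand: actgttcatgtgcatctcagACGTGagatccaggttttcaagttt
Arnt, chr3:95434341-95434385, plus strand: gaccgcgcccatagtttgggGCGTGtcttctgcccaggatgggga

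Bnip3 held 5 matches, P4ha1 and Hif1a 3 each, Egln1 2, and Egln3 and Arnt 1 each. The Vegfa window at the downstream start held 2, and the window of Vhl held none. Of 9 windows from 8 members, 7 held a match, 77.8%. The motif is short and common: 43.8% of all 32851 windows held it, and 62.9% of the 10167 windows of genes that passed the signal filter. The window also leaves out elements further from the start. Genes with matches stood on both sides of 0 at 4 h, from Hif1a at 0.67 to Egln1 at -0.65, and the Vhl window with no match belonged to the lowest member. A link between matches and ratios was not tested. Bnip3l had no match by symbol in the promoter table.

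Beyond the members, lists of the pathway named 86 other genes, of which 63 passed the filter. At 2 h, 8 of them were lower and 2 higher by 2-fold or more, and at 4 h 14 were lower and 2 higher. Lower genes made up 12.7% and 22.2% of them, beside 5.69% and 14.4% of all genes. Higher genes made up 1.41% of all genes at 2 h and 2.32% at 4 h. The median log2 ratio of the 63 genes was 0.11 at 2 h and 0.09 at 4 h, beside -0.01 and -0.07 for all genes. These lists were chosen with earlier results of these data known, and the counts describe 3 arrays.

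**Figure D4:**
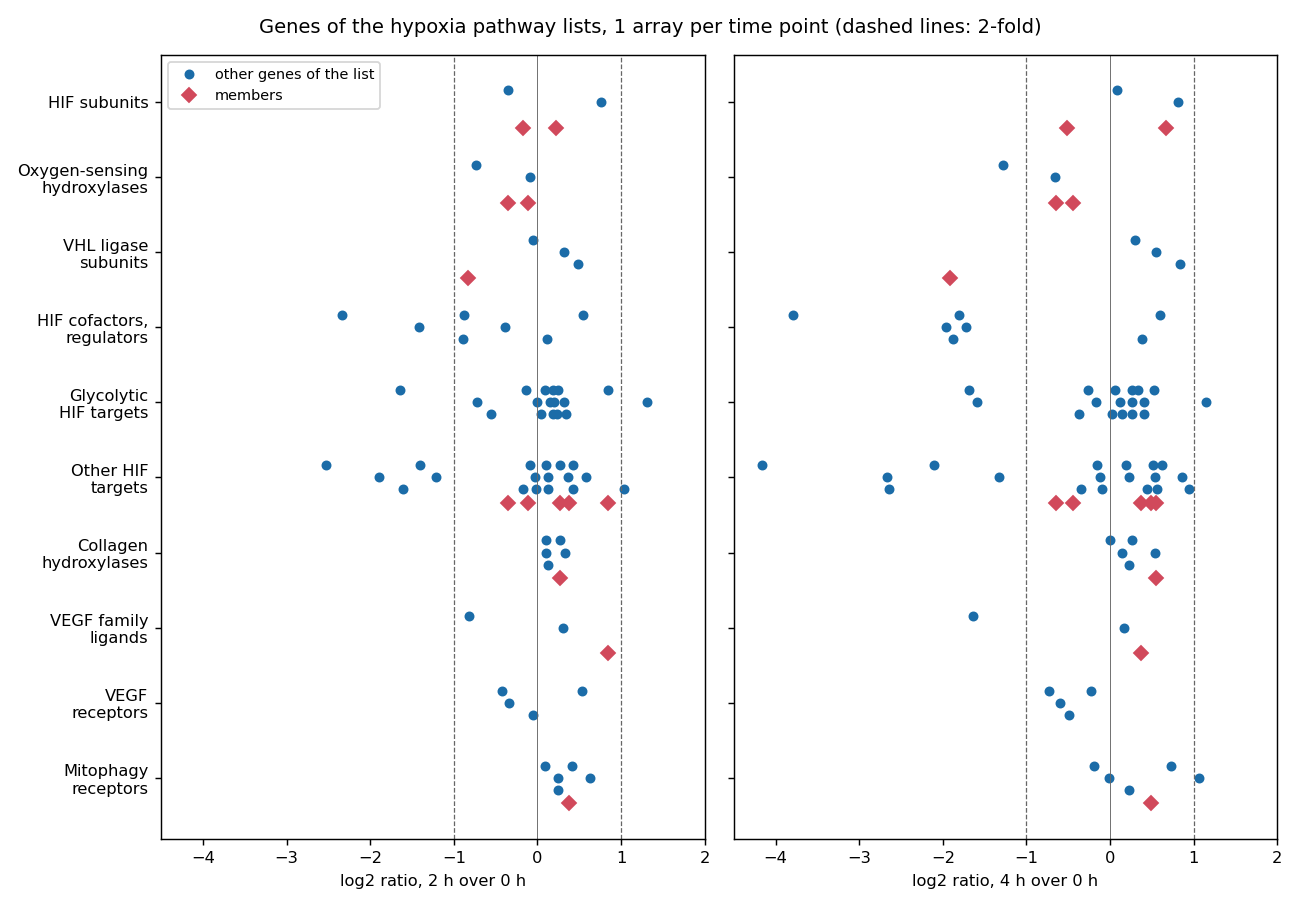
Log2 ratio at 2 h (left) and 4 h (right) over 0 h for the passing genes of 10 lists, with members as red diamonds below the blue points of the other genes and dashed lines at 2-fold. At 4 h the cofactor and regulator list holds 5 of 7 genes beyond 2-fold lower, beside 14.4% of all genes. Most collagen hydroxylases and glycolytic targets lie within 2-fold of 0 h at that time.

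Of the cofactors and regulators of HIF, 2 of 7 passed 2-fold lower at 2 h and 5 of 7, or 71.4%, did so at 4 h. Among all genes, 5.69% and 14.4% were lower by that size. The median log2 ratios of the list were -0.87 and -1.80. Cited2, which competes with the alpha subunit for coactivators, had signals of 4431, 880 and 320 and was 13.8-fold lower at 4 h (log2 ratio -3.79 ± 0.19, SD over 2 probe sets). Siah1a, a ubiquitin ligase that acts on the Egln enzymes, had 697, 380 and 179 and a 4 h ratio of -1.96 ± 0.99 (SD over 3 probe sets). The other lower genes, named after their values were seen, were the acetyltransferase coactivators Ep300 (1336, 719 and 364) and Crebbp (792, 608 and 227) and the ligase Siah2 (477, 178 and 145). They were 3.67-fold, 3.49-fold and 3.30-fold lower at 4 h. These 5 genes were at least 2-fold lower at 4 h with equal medians, quantile normalization and spike-in scaling alike. Cited1, a relative of Cited2, was at 0.38 and the chaperone Hsp90aa1, which holds the alpha subunit, at 0.60 ± 0.04 (SD over 3 probe sets) at 4 h.

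Of the targets outside glycolysis, 9 were below and 9 above 0 at 4 h. The numbers were 11 and 7 with spike-in scaling, and 6 and 12 with either equal medians or quantile normalization. The same 5 of these 18 passing genes, or 27.8%, were at least 2-fold lower at both times, beside 5.69% of all genes at 2 h and 14.4% at 4 h. Stc2, a secreted glycoprotein, was 1 gene higher at 2 h (log2 ratio 1.03 ± 0.93, SD over 2 probe sets), and at 0.82 with spike-in scaling it was not. Bhlhe40, a transcriptional repressor, had signals of 1938, 335 and 109. It was 17.8-fold lower at 4 h, where its signal lay under the array's median of 126, so the size of that fold is uncertain. Hilpda, a lipid droplet protein, had 635, 170 and 99.2 and was at least 6.35-fold lower at 4 h, where it was under the floor. The other 3, named after their values were seen, were Ddit4, an inhibitor of mTORC1 (1058, 347 and 170), Wsb1, a substrate receptor of a ubiquitin ligase (1144, 492 and 267), and Kdm3a, a histone demethylase (1481, 558 and 591). In contrast to these, Ero1a, an oxidase of protein folding, had 2118, 2838 and 4083 with a 4 h ratio of 0.95 ± 0.29 (SD over 3 probe sets), past 2-fold with equal medians (1.25). Higd1a, a mitochondrial inner membrane protein, had 3950, 5909 and 7165 with a 4 h ratio of 0.86 ± 0.15 (SD over 2 probe sets), likewise past 2-fold with equal medians (1.17). P4ha1, Bnip3 and Vegfa lay on the side of Ero1a and Higd1a, and Egln1 and Egln3 lay between these and the lower genes.

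Of 17 glycolytic targets, 1 was at least 2-fold lower and 1 higher at 2 h, and 2 were lower and 1 higher at 4 h. Lower genes were 5.88% and 11.8% of the list, near the 5.69% and 14.4% of all genes. Of all genes, 1.41% were higher at 2 h and 2.32% at 4 h. Pfkfb3, which makes the activator of phosphofructokinase, had signals of 509, 163 and 157, and the hexokinase Hk2 had 2364, 1427 and 788, so they were 3.23-fold and 3.0-fold lower at 4 h. Aldoc, an aldolase, was dim at 126, 312 and 280 and 2.22-fold higher at 4 h, but at a log2 ratio of 0.83 with spike-in scaling it was under 2-fold. The lactate transporter Slc16a3, at 157, 282 and 226, passed in the same way. Most of the list lay near 0 and its sign turned with the scaling. Of 17 genes, 12 were above 0 at 4 h in the main setting, 14 with equal medians and 5 with either quantile normalization or spike-in scaling. The list median at 4 h was 0.14 in the main setting, 0.45 with equal medians, -0.07 with quantile normalization and -0.18 with spike-in scaling.

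Relatives of P4ha1 in collagen modification were all within 2-fold of 0 h. Plod2, a lysyl hydroxylase, had the highest 4 h log2 ratio among them at 0.54 ± 0.16 (SD over 2 probe sets), beside 0.55 for P4ha1. P4hb, the partner subunit of P4ha1, stood at 0.26, Plod1 at 0.15 and Plod3 at -0.01. The list median at 4 h was 0.22, and it was 0.53 with equal medians, 0.04 with quantile normalization and -0.10 with spike-in scaling. Among relatives of Vegfa, Vegfb had signals of 2182, 2686 and 2448 and stayed at 0.17 at 4 h, below 0 with spike-in scaling, whereas Vegfc, a lymphatic growth factor, had 779, 441 and 251 and was 3.11-fold lower at 4 h. Of the VEGF receptors, Flt4 stood at -0.73, Nrp2 at -0.60, Nrp1 at -0.49 and Kdr at -0.23 at 4 h, none beyond 2-fold in the main setting. Flt4 reached -1.05 with spike-in scaling, and Kdr was above 0 with equal medians or quantile normalization.

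Beside Bnip3, the mitophagy receptor list held Fundc1, an outer membrane receptor, with signals of 1350, 1794 and 2816. It was 2.09-fold higher at 4 h (log2 ratio 1.06 ± 0.20, SD over 2 probe sets), and under 2-fold at 0.74 with spike-in scaling. Pink1, a kinase that starts mitochondrial clearance, had 494, 762 and 818 and a ratio of 0.73 ± 0.14 (SD over 2 probe sets), or 1.03 with equal medians. Phb2 was at -0.02 ± 0.96 (SD over 4 probe sets) and Bcl2l13 at -0.19 ± 0.18 (SD over 2 probe sets) at 4 h. Both were above 0 with equal medians, at 0.29 and 0.11, and the probe sets of Phb2 differed widely. Bnip3, Fundc1, Pink1 and the shared Bnip3l probe sets were thus above 0 at 4 h in the main setting, by 1.4-fold to 2.16-fold.

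The whole-array scale bears on these directions. Scaling to equal medians moved the median log2 ratio of all genes by 0.15 at 2 h and 0.31 at 4 h, quantile normalization by 0.04 and 0.12, and spike-in scaling by -0.22 and -0.32. At 4 h, genes at least 2-fold different were 1396 lower and 226 higher in the main setting, 872 and 733 with equal medians, 991 and 431 with quantile normalization and 2206 and 65 with spike-in scaling. At 2 h the numbers were 553 and 137, 371 and 231, 401 and 233, and 917 and 71. Relative to the median of all genes, the 4 h ratios of Hif1a, P4ha1, Bnip3 and Vegfa were 0.73, 0.61, 0.56 and 0.44, and those of Egln3, Arnt, Egln1 and Vhl -0.37, -0.45, -0.58 and -1.84. By the clock times that the file headers give for hybridization, read without dates, the array at 4 h came 94 minutes after the first. The array at 2 h came 1 minute after the first. The headers name module 3 for the array at 0 h, 4 at 2 h and 1 at 4 h. Module and clock time thus cannot be told apart from the time in doxorubicin.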

How the data were processed

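The deposited values are linear probe set intensities from 1 array at each of 3 times, already scaled by the authors, since each array has a 2% trimmed mean of 150.0. Per the submitters' processing notes GCOS 1.4 was used, with the step from probes to signal not given in the sources used here. Array settings (design, module, clock time) are per the file headers.

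Intensities were rescaled, floored, filtered and turned to log2 as stated above. Of 45101 probe sets, 34958 carried 1 gene symbol, 932 several and 9211 were not listed, and 34754 symbols were updated by Entrez ID to RefSeq (GRCm38.p6). Probe sets with several symbols stood for no gene. Called means a log2 ratio of at least 1 in size, and no test was made with 1 array per time. Counting was tested on simulated data. A ± value is the SD over probe sets of a gene, not an error between cultures. From each list the 2 highest and 2 lowest genes at 4 h were named. Members and lists were chosen with earlier results of these data known. Sequences are from RefSeq promoter windows, which 8 of 9 members matched. Alternatives covered scaling, floor, filter, probe set choice and suffixed names (_x_at, _s_at, _a_at). Python 3.11.15, numpy 2.4.6, pandas 2.3.3 and matplotlib 3.10.9 were used.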

Additional observations from a re-analysis of the deposited data

How the results depend on the processing

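Floors of 50 and 200, the filters and the values as deposited left each measured member ratio as it was by construction, so the settings that could move one were the scalings, the offset and the choice of probe sets. Under these the sign turned for Arnt at both times, for Hif1a at 2 h without suffixed probe sets and for Egln1 at 2 h with equal medians. No paired analysis was possible because each time has 1 array, and no replicate could be left out.

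The number of members at least 2-fold lower at 4 h was 1 in the main setting and 0 with the values as deposited, where only 4 members passed and Vhl was not among them. At 2 h, 1 member was lower with spike-in scaling (Vhl) and 1 higher with quantile normalization (Vegfa), against 0 and 0. The relative median of members at 4 h was 0.03, and it was -0.46 with a filter of 400 and 0.57 without suffixed probe sets. Both settings left out Vegfa, and without suffixed probe sets Arnt also stood at 0.73 in place of -0.52. With the shared Bnip3l probe sets, a setting added after seeing the data, the relative median was 0.44.

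Of the other pathway genes, 8 were lower at 2 h and 14 at 4 h in the main setting, 2 and 4 with the values as deposited (42 genes passing) and 4 and 9 with a filter of 400 (51 passing). Those higher numbered 2 at each time. They were 0 and 1 as deposited and with a filter of 400, 1 and 0 with spike-in scaling, and 1 and 1 with a floor of 200, an offset of 50, the mean over probe sets or no suffixed probe sets. At 4 h they were 7 with equal medians, 3 with quantile normalization and 4 without a filter. Quantile normalization and no filter each gave 3 at 2 h. As deposited and with the filter of 400 fewer genes were counted, and the deposited values lie lower against the same floor. The causes of the other shifts were not tested. Low signal limits Vegfa, which had 1 dim probe set.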
